A study of Saccharomyces cerevisiae with 79 samples.

Results

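Among the introns of budding yeast followed here are those of 5 genes whose products belong to the splicing machinery and whose own transcripts must be spliced: MUD1 (YBR119W), SMD2 (YLR275W), LSM2 (YBL026W), LSM7 (YNL147W) and YSF3 (YNL138W-A). They were picked by gene name and function and not by a rule on measured values, although earlier results of these data were known at the time. All 5 were found among the 308 introns targeted in the series, with 1 intron each. Newly made RNA was marked with 4-thiouracil, a uracil analogue fed to growing cells, then isolated and turned into libraries by multiplexed primer extension, in which a primer lying downstream of each chosen intron copies across it. A read with the intron still in place counts as unspliced. The unspliced share used throughout is the percentage of a gene's reads that are unspliced.

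The groups differ as follows. The mutant allele that names the prp2-1 strain lies in PRP2, the gene of the ATPase that remodels the assembled spliceosome just before its first reaction. It is represented here by 1 time course of 10 libraries up to 1320 s and by the 0 s library of a second course. The WT_30 series, of strain BY4741, had 2 courses with labelling up to 3600 s. The WT series, also BY4741, had 3 courses with labelling up to 990 s. Cells of every group were grown in synthetic medium and treated with 4-thiouracil, with a labelling time of 0 s for the first sample of a course. Beyond its name, the labels set WT_30 apart from WT by its times and by its spike-in, which was total labelled RNA of fission yeast instead of transcripts made in vitro, and they state neither a growth temperature nor the parent strain of prp2-1. The allele prp2-1 is known as temperature-sensitive, so the state of Prp2 in these cultures is not given by the labels. Reads of PRP2 itself were not analysed here.

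A spliceosome assembles on each intron from small nuclear RNAs and their bound proteins. The U1 particle meets the 5′ splice site, the U2 particle pairs with the branch sequence, and the U4, U5 and U6 RNAs join before the reactions start. In the first reaction the branch adenosine attacks the 5′ splice site and forms a lariat intermediate, and in the second the exons are joined. Mud1 is a protein of the U1 particle and the counterpart of the A protein of human U1. Smd2 is a member of the Sm ring that encircles the U1, U2, U4 and U5 RNAs. Lsm2 and Lsm7 sit in the related ring on U6 RNA and also in the cytoplasmic ring that takes part in mRNA decay. Ysf3 is a small subunit of SF3b, the part of the U2 particle that holds the branch region.

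The 5 introns are shown because each holds all 3 signals the machinery reads. They were taken from the RefSeq annotation and genome of build R64 and are written 5′ to 3′ on the plus strand. Capitals mark the 5′ splice site, the branch sequence and the 3′ splice site.
MUD1: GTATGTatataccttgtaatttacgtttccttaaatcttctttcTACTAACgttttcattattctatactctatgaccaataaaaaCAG
SMD2: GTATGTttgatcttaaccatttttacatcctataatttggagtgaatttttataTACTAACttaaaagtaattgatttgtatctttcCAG
LSM2: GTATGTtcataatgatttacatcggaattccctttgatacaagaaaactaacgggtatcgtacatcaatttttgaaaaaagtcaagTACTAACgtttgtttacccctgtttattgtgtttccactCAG
LSM7: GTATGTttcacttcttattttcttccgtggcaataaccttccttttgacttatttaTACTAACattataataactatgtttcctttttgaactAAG
YSF3: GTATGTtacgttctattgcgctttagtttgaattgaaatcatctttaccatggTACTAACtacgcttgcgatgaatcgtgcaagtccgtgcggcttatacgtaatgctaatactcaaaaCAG

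The intron of MUD1 lies at chrII:479346-479434, that of SMD2 at chrXII:694383-694472 and that of LSM2 at chrII:170677-170804. The intron of LSM7 lies at chrXIV:350958-351053 and that of YSF3 at chrXIV:366036-366157. All 5 have coding exons on both sides, and no other annotated gene overlaps any of the 5 genes. All 5 open with GTATGT and hold 1 exact TACTAAC. They were set beside the 258 targeted introns that are the single intron of their gene and could be read from the genome. On the sense strand, which reads as the RNA does, 186 of the 258 opened with GTATGT (72.09%) and 214 held TACTAAC (82.95%). The members measure 89 nt in MUD1, 90 nt in SMD2, 96 nt in LSM7, 122 nt in YSF3 and 128 nt in LSM2, all below the median of 147 nt over the 258 introns. Of the 258, 57 are shorter than MUD1, 113 shorter than YSF3 and 118 shorter than LSM2.

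The members also differ in what follows the branch. From the branch adenosine to the end of the intron there are 30 nt in SMD2, 34 nt in LSM7, 36 nt in LSM2 and 39 nt in MUD1, near the median of 34 nt over the 258 introns. YSF3 has 63 nt, and 233 of the 258 introns have a shorter distance. LSM7 ends in AAG, as do 5.04% of the 258, whereas the other members end in CAG, as do 43.8%. The coding exon before the intron is 3 nt in YSF3, 5 nt in SMD2, 8 nt in MUD1, 18 nt in LSM7 and 54 nt in LSM2. The median over the 258 introns is 30 nt, which LSM2 alone exceeds, and 60 of the 258 introns follow a coding exon of 10 nt or less.

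Depth set what could be read. Labelled libraries held 320553 to 4430240 intron reads in prp2-1, 4128290 to 11603200 in WT_30 and 929102 to 8128750 in WT. A member had 65 to 5821 reads per labelled prp2-1 library, 1160 to 19348 per WT_30 library and 88 to 8015 per WT library. At 0 s each member had only 2 to 11 reads in prp2-1, 413 to 7923 in WT_30 and 35 to 213 in WT, so shares at 0 s can be read in WT_30 alone. The time course is the replicate. Whether each course was a culture of its own is not said in the labels. The p-values therefore speak of the scatter among the courses sequenced, part or all of which may be technical. The 95% intervals given for single shares (Wilson) hold counting error and nothing else, because PCR copies were not marked with molecular identifiers. Times are nominal.

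**Figure D1:**
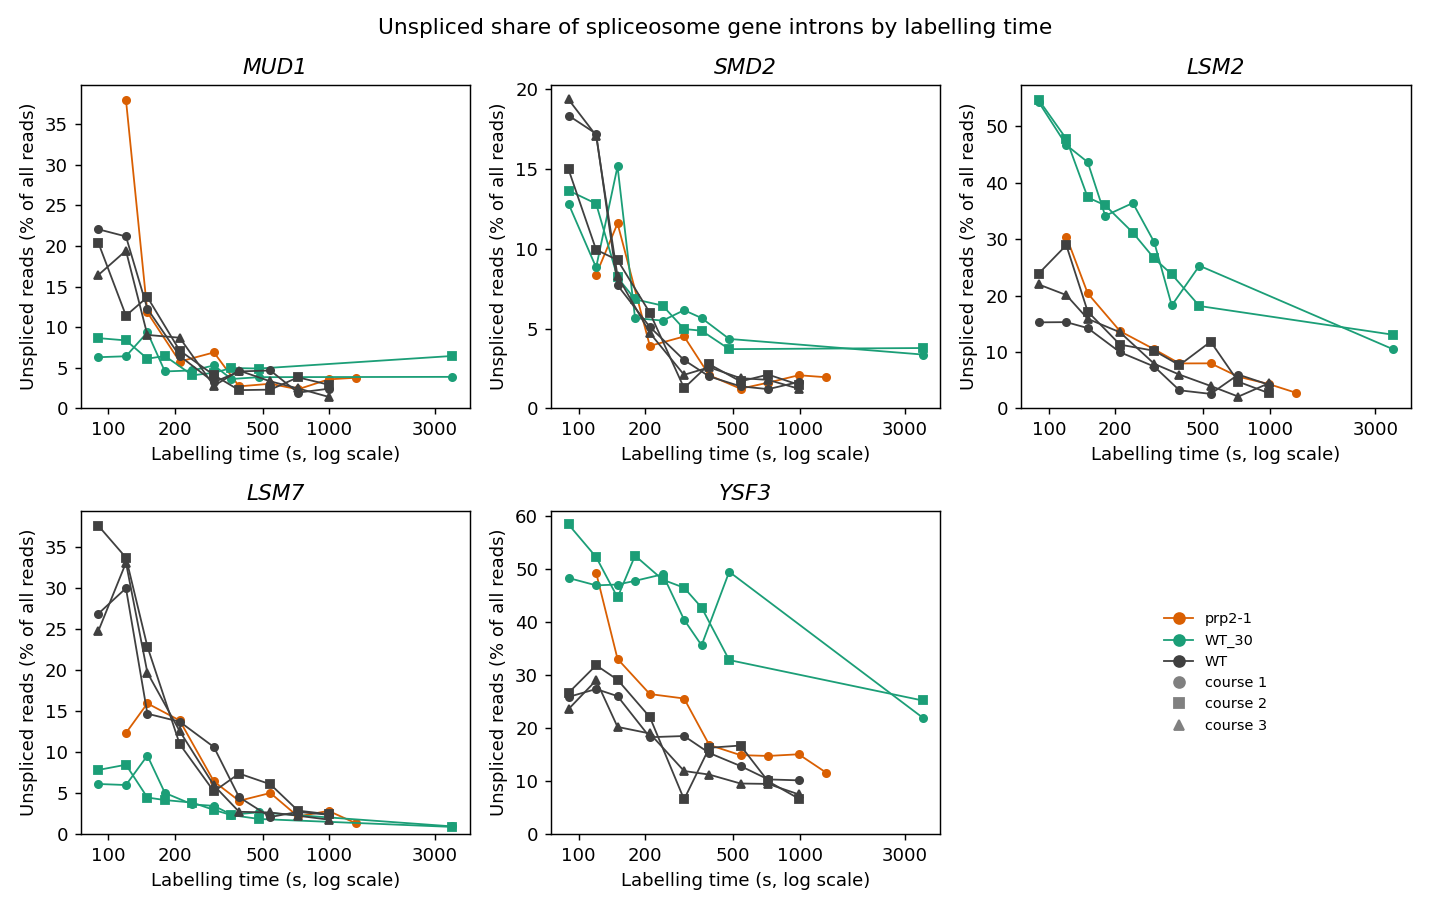
Unspliced reads as a percentage of all reads of each member (vertical axis) against labelling time in seconds on a log scale, for each prp2-1, WT_30 and WT course, with 1 point per library and lines joining a course. LSM2 and YSF3 sit higher in both WT_30 courses than in WT, with 54.3% and 54.7% for LSM2 at 90 s, and LSM7 sits lower.

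In WT the unspliced share of all 5 members fell as labelling went on, and that of LSM7 fell by the largest proportion. The first labelled libraries, at 90 s, also held much unlabelled RNA. The 0 s library of the course, scaled by spike-in reads, accounted for 29.9%, 52.0% and 37.1% of all their intron reads in courses 1 to 3. At that time LSM7 had 26.8%, 37.5% and 24.7% unspliced reads in courses 1 to 3, YSF3 had 25.9%, 26.6% and 23.6%, and SMD2 had 18.3%, 15.0% and 19.3%. By 990 s LSM7 had 2.37%, 2.44% and 1.78%, SMD2 had 1.66%, 1.49% and 1.23%, and YSF3 still had 10.1%, 6.71% and 7.51%. At 90 s the courses of LSM7 and YSF3 overlapped, and at 990 s they did not. With the scaled 0 s reads taken away, LSM7 had 32.5%, 62.9% and 27.2% at 90 s and YSF3 had 29.7%, 34.8% and 26.8%. LSM7 stood well above YSF3 in course 2 alone, where 43.1% of the LSM7 reads were taken away. The 0 s libraries of WT held few reads of each member, so these values are uncertain.

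The test set the sum over 540, 720 and 990 s (late) against that over 150, 210 and 300 s (early) in each course. The windows of a course were not paired in this main fit. MUD1, the U1 protein gene, had 2.36%, 3.09% and 2.66% unspliced reads late and 6.48%, 9.43% and 5.61% early. SMD2, the Sm ring gene, had 1.47%, 1.76% and 1.69% late and 4.93%, 6.74% and 4.63% early. No late value reached any early one in either gene.

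Of the ring genes of U6, LSM2 had 3.92%, 5.09% and 3.78% late and 10.4%, 13.9% and 12.0% early. LSM7 had 2.45%, 3.08% and 2.30% late and 13.0%, 15.2% and 11.8% early, so that by mean share it was the second lowest of the members late and the second highest early. YSF3, the SF3b gene, had 10.5%, 9.27% and 8.87% late and 20.7%, 23.1% and 15.9% early. It kept the highest share of the 5 in both windows.

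By edgeR's quasi-likelihood test on unspliced against spliced reads with Benjamini-Hochberg adjustment over 275 introns, the ratio fell in all 5 members. It fell in 90.9% of introns tested and rose in 1.45%, so that 92.4% passed in either direction. The log2 change was -2.52 ± 0.22 (SE) in LSM7 (adjusted p = 3.67e-06), the fifth lowest of the 275. It was -1.77 ± 0.24 in SMD2 and -1.62 ± 0.22 in LSM2, beside a median over introns of -1.52. MUD1 changed by -1.44 ± 0.25 and YSF3 by -1.22 ± 0.23, and the largest adjusted p among the 5 was 0.000196. When unspliced and spliced reads were scaled separately so that the typical intron stood near 0, which moved the median to -0.01, LSM7 alone still fell, by 1.00 on the log2 scale (adjusted p = 0.00557 by edgeR, where 20.4% of introns passed). On that scale LSM2 (-0.11), SMD2 (-0.25), MUD1 (0.06) and YSF3 (0.29) did not pass, and the last pair changed sign.

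**Figure D2:**
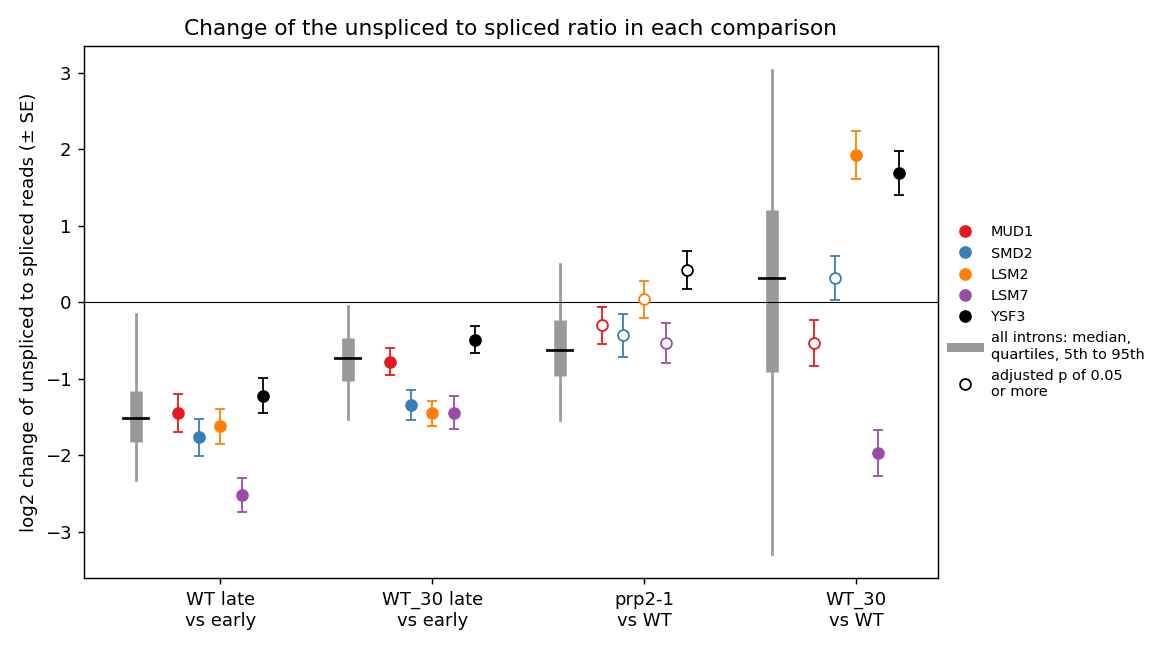
Log2 change of the ratio of unspliced to spliced reads (vertical axis, points with SE bars) in each member and comparison, with filled points for an adjusted p under 0.05 by edgeR. Grey bars give the median, quartiles and 5th to 95th percentiles over all introns tested. LSM7 lies at -2.52 for WT late against early and at -1.97 for WT_30 against WT, whereas LSM2 and YSF3 lie at 1.93 and 1.70 in the last comparison.

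WT_30 was also followed from early (90, 120 and 150 s) to late (300, 360 and 480 s). LSM2 had 25.7% and 23.8% late and 46.8% and 47.9% early in courses 1 and 2. LSM7 had 2.98% and 2.46% late and 6.96% and 7.10% early, and SMD2 had 5.43% and 4.69% late and 11.8% and 12.0% early. The windows of these 3 members were far apart beside the spread between courses.

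MUD1 had 4.50% and 4.71% late and 7.31% and 7.97% early in WT_30. YSF3 had 41.5% and 41.4% late and 47.2% and 52.5% early, the smallest relative loss among the members. By edgeR the ratio of unspliced to spliced reads fell in all 5, as in 65.6% of 282 introns (Benjamini-Hochberg adjustment). The log2 changes were -1.45 ± 0.16 in LSM2, -1.44 ± 0.21 in LSM7, -1.34 ± 0.20 in SMD2, -0.78 ± 0.18 in MUD1 and -0.49 ± 0.18 in YSF3 (SE), with a median over introns of -0.73. The adjusted p for YSF3 was 0.0414 by edgeR and 0.0549 by DESeq2, where 66.3% of introns passed. Under the separate scaling of unspliced and spliced reads no member and 0% of introns passed, and MUD1 (0.0035) and YSF3 (0.29) changed sign.

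The last WT_30 samples, at 3600 s, had lower shares than the late window in every member but MUD1. The mean of MUD1 was 4.60% in the late window and 5.18% at 3600 s. YSF3 still had 22.0% and 25.2% unspliced reads in courses 1 and 2, and LSM2 had 10.5% and 13.1%. MUD1 had 3.89% and 6.47%, SMD2 had 3.37% and 3.78%, and LSM7 had 0.952% and 0.889%. The 0 s libraries, which hold RNA that came through the pull-down without labelling, kept nearly the same order. There YSF3 had 34.3% and 38.0%, LSM2 had 18.2% and 11.9%, MUD1 had 2.48% and 2.79%, SMD2 had 0.599% and 3.17%, and LSM7 had 0.440% and 0.366%. YSF3 and LSM2 were thus the members with the highest unspliced shares in labelled and unlabelled RNA of WT_30 alike.

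At matched times WT_30 differed from WT in 3 members, and in opposite directions. The sums over 90, 120, 150 and 300 s were compared, the times both series share. LSM2 had 40.8% and 39.8% unspliced reads in the WT_30 courses, against 11.3%, 20.5% and 14.5% in the WT courses. YSF3 had 44.6% and 50.9% in WT_30 and 22.5%, 25.5% and 18.5% in WT. LSM7 had 5.50% and 5.42% in WT_30 and 14.7%, 23.9% and 17.7% in WT. The groups did not overlap in any of the 3, and at each of the 4 times singly the WT_30 libraries lay above all WT libraries in LSM2 and YSF3 and below all of them in LSM7.

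The ratio of unspliced to spliced reads was higher in WT_30 by 1.93 ± 0.32 in LSM2 (log2, SE, adjusted p = 2.80e-05) and by 1.70 ± 0.29 in YSF3 (adjusted p = 4.47e-05), and lower in LSM7 at -1.97 ± 0.31 (adjusted p = 1.61e-05), by edgeR with Benjamini-Hochberg adjustment. So 3 of 5 members passed, beside 65.8% of 284 introns, with 37.7% higher, 28.2% lower and a median of 0.32. Those 3 calls held without any 1 of the 5 courses. LSM2 and LSM7, which encode subunits of the same rings, thus differed from WT in opposite directions.

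MUD1 had 6.57% and 6.78% unspliced reads in WT_30 and 8.22%, 12.7% and 7.87% in WT. Its log2 difference of -0.53 ± 0.30 (SE) missed the threshold (adjusted p = 0.122 by edgeR), though it passed at -0.75 when unspliced and spliced reads were scaled separately (adjusted p = 0.00982, where 70.4% of introns passed). SMD2 had 9.48% and 9.39% in WT_30 and 6.35%, 8.45% and 8.44% in WT. At 0.32 ± 0.29 (SE) it did not pass either (adjusted p = 0.326 by edgeR). The courses of the 2 series did not overlap in either gene when the times were summed, but single times were mixed. The WT_30 libraries of MUD1 lay above all WT libraries at 1 of the 4 times and below at 2, and those of SMD2 lay above at 1 and below at 1. With each time given equal weight, an alternative added after the data had been seen, MUD1 averaged 6.86% and 6.89% in WT_30 and 14.7%, 12.4% and 11.9% in WT and passed at -1.01 (adjusted p = 0.000208 by edgeR). SMD2 averaged 10.7% and 9.90% in WT_30 and 11.6%, 8.86% and 11.7% in WT, changed sign (-0.05) and overlapped. In that fit 4 of 5 members and 74.3% of introns passed, LSM2, YSF3 and LSM7 among them.

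**Figure D3:**
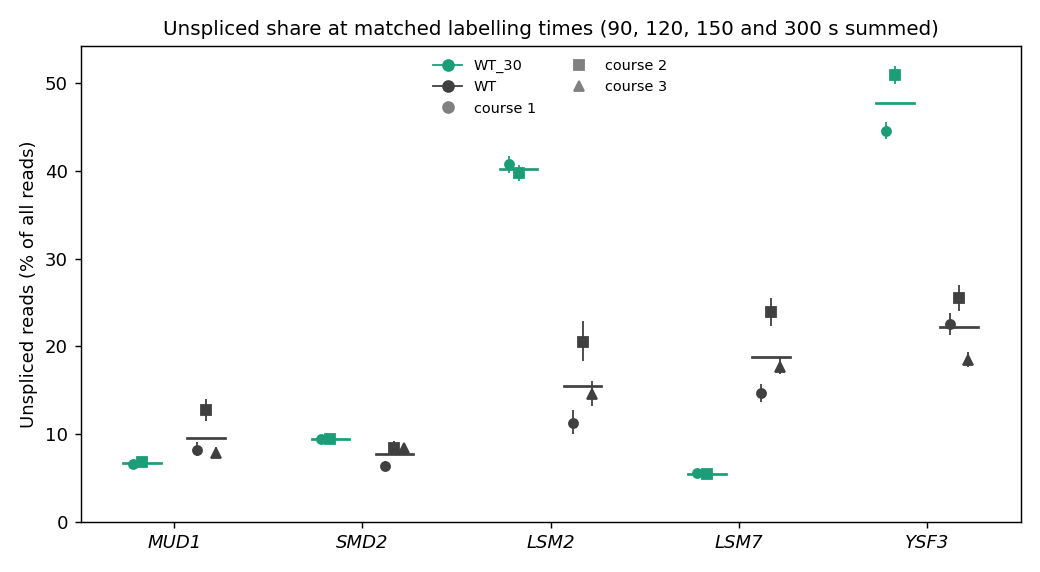
Unspliced reads as a percentage of all reads (vertical axis) of each member with the 90, 120, 150 and 300 s libraries of a course summed, WT_30 left of WT. Points are courses with 95% Wilson intervals and lines are means, for example 40.3% in WT_30 and 15.4% in WT for LSM2.

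Unlabelled RNA took different parts of the reads in the members. Scaled by spike-in reads, the 0 s library of the same course accounted for 57.3% and 37.3% of LSM7 reads at 90 s in WT_30 courses 1 and 2, and for 25.9% and 17.4% of LSM2 reads. By 480 s it accounted for 2.99% and 2.21% of LSM7 reads. With those reads taken away, an alternative added after the data had been seen, the log2 difference of WT_30 from WT was 1.96 in LSM2, 1.66 in YSF3 and -1.75 in LSM7, and all 3 passed by edgeR. The series also differ in the kind of spike-in RNA used, and the labels give no other shared batch, so the series and its preparation cannot be told apart.

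In prp2-1 no member passed the test against WT, and YSF3 stood above all WT courses at most times. Sums over 150, 210, 300, 390, 540, 720 and 990 s were compared, 1 prp2-1 course against 3 WT courses. With a single prp2-1 course, the fit takes its scatter from the WT courses. MUD1 had 3.85% unspliced reads in prp2-1 (interval 3.53 to 4.21) and 4.78%, 5.05% and 4.29% in WT. SMD2 had 2.45% in prp2-1 (2.25 to 2.66) and 3.33%, 3.52% and 3.00% in WT. LSM7 had 4.29% in prp2-1 (3.86 to 4.77) and 6.82%, 6.60% and 4.99% in WT. In these 3 genes the summed prp2-1 value lay below all WT values. Most introns leaned the same way, with a negative log2 difference from WT in 229 of 283 tested.

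LSM2 had 7.25% in prp2-1 (6.55 to 8.02), within the 6.61%, 7.77% and 6.88% of WT. YSF3 had 17.5% in prp2-1 (16.6 to 18.4), above the 15.2%, 14.2% and 11.8% of WT. Time by time YSF3 had 33.0%, 26.4%, 25.6%, 16.8%, 14.9%, 14.7% and 15.1% in prp2-1 from 150 to 990 s. The WT courses ranged from 20.2% to 29.1% at 150 s, from 11.2% to 16.3% at 390 s and from 6.71% to 10.1% at 990 s. At 6 of the 7 times the prp2-1 library lay above all 3 WT libraries.

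The sums weight each time by its reads, and prp2-1 had more of them late. The 540 to 990 s libraries held 65.6% (MUD1) to 74.1% (LSM7) of a member's summed reads in prp2-1 and 39.9% to 63.5% in the WT courses. Single times gave another order: prp2-1 lay above all WT courses at 2 times and below at 1 in MUD1 and in LSM7, above at 3 and below at 2 in SMD2, and above at 4 and below at none in LSM2. With each time given equal weight, LSM2 averaged 10.1% in prp2-1 and 6.81%, 9.39% and 7.70% in WT, and YSF3 averaged 20.9% in prp2-1 and 15.9%, 15.3% and 12.7% in WT. SMD2 averaged 3.86% in prp2-1 and 3.16%, 3.52% and 3.23% in WT. These 3 stood above all WT courses, whereas MUD1 (5.18% in prp2-1, and 5.09%, 5.19% and 4.64% in WT) and LSM7 (7.18% in prp2-1, and 7.24%, 8.26% and 6.80% in WT) lay among them.

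By edgeR with Benjamini-Hochberg adjustment, 0 of 5 members passed in this comparison, at an unadjusted p under 0.05 also 0, and by DESeq2 again 0. Over 283 introns edgeR called 32.9%, made up of 30.7% that stood lower in prp2-1 and 2.12% that stood higher, and DESeq2 called 35.7%. The median log2 difference was -0.62. The members lay at -0.53 ± 0.26 in LSM7 (adjusted p = 0.120), -0.43 ± 0.28 in SMD2 (0.214), -0.30 ± 0.24 in MUD1 (0.316), 0.04 ± 0.25 in LSM2 (0.893) and 0.42 ± 0.25 in YSF3 (0.177), each with its SE. YSF3 ranked 267th and LSM2 232nd from the lowest of the 283. With each time weighted equally the values were -0.05 in LSM7, 0.24 in SMD2, 0.06 in MUD1, 0.38 in LSM2 and 0.63 in YSF3, so that SMD2 and MUD1 changed sign. The number of introns called over the whole table was 93, and it was 30 (10.6%) with each time weighted equally, where again no member passed, and 4 without WT course 2, 37 without WT course 3, 22 with 150 to 300 s alone and 11 with 540 to 990 s alone.

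The late to early change was also set against that of WT. In prp2-1 the shares late and early were 2.98% and 6.92% in MUD1, 1.67% and 5.14% in SMD2, 5.66% and 13.0% in LSM2, 2.95% and 10.3% in LSM7, and 14.9% and 26.9% in YSF3. In every member the late share was the lower of the pair, with 1 course and hence no test within prp2-1. The change in prp2-1 less that in WT ran from 0.09 ± 0.49 in SMD2 to 0.61 ± 0.46 in LSM7 (log2, SE), with a median of 0.49 over 278 introns. No member passed by edgeR, and 0% of introns did, although 17 introns and 0 members had an unadjusted p under 0.05, and DESeq2 called 2 introns (0.719%) and 0 members.

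Parts of the unspliced reads were also counted as separate classes, and the members had very different mixtures. Lariat intermediate reads stop at the branch and mark RNA past the first reaction. Over 150 to 990 s they made up 30.8% of LSM7's unspliced reads in prp2-1, against 27.1%, 38.7% and 46.6% in WT. In YSF3 they made up 0.313% in prp2-1 (4 reads of 1279) and 0.550%, 0.999% and 1.31% in WT. The median over 259 introns in WT was 18.4%, and YSF3 ranked 11th from the lowest.

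SMD2 had 11.2% lariat reads in prp2-1 and 11.5%, 8.39% and 11.8% in WT. LSM2 had 11.5% in prp2-1 and 6.88%, 11.2% and 8.40% in WT, and MUD1 had 7.76% in prp2-1 and 4.91%, 6.79% and 7.20% in WT. For LSM2 and MUD1 the prp2-1 value lay just above the 3 WT values, and for SMD2 and LSM7 it lay among them. The widest difference between members of WT was that of LSM7 and YSF3, whose values lay nowhere near each other in any course.

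Another class of unspliced reads ends inside the stretch from branch point to 3′ splice site. They made up 28.5% in MUD1 in prp2-1 and 23.7%, 15.5% and 25.4% in WT, and 17.2% in YSF3 in prp2-1 and 21.2%, 14.7% and 27.4% in WT. SMD2 had the fewest, with 1.93% in prp2-1 and 1.72%, 0.987% and 2.75% in WT. In WT the 2 members with the longest distance from branch to 3′ splice site, YSF3 and MUD1, had the most such reads and SMD2, with the shortest, the fewest. In prp2-1 MUD1 stood above YSF3, whose distance is longer. A link with distance was not tested, in the members or over the other introns. LSM2 had 3.74% in prp2-1 and 10.3%, 2.75% and 7.65% in WT, and LSM7 had 8.38% in prp2-1 and 6.03%, 3.84% and 8.76% in WT.

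**Figure D4:**
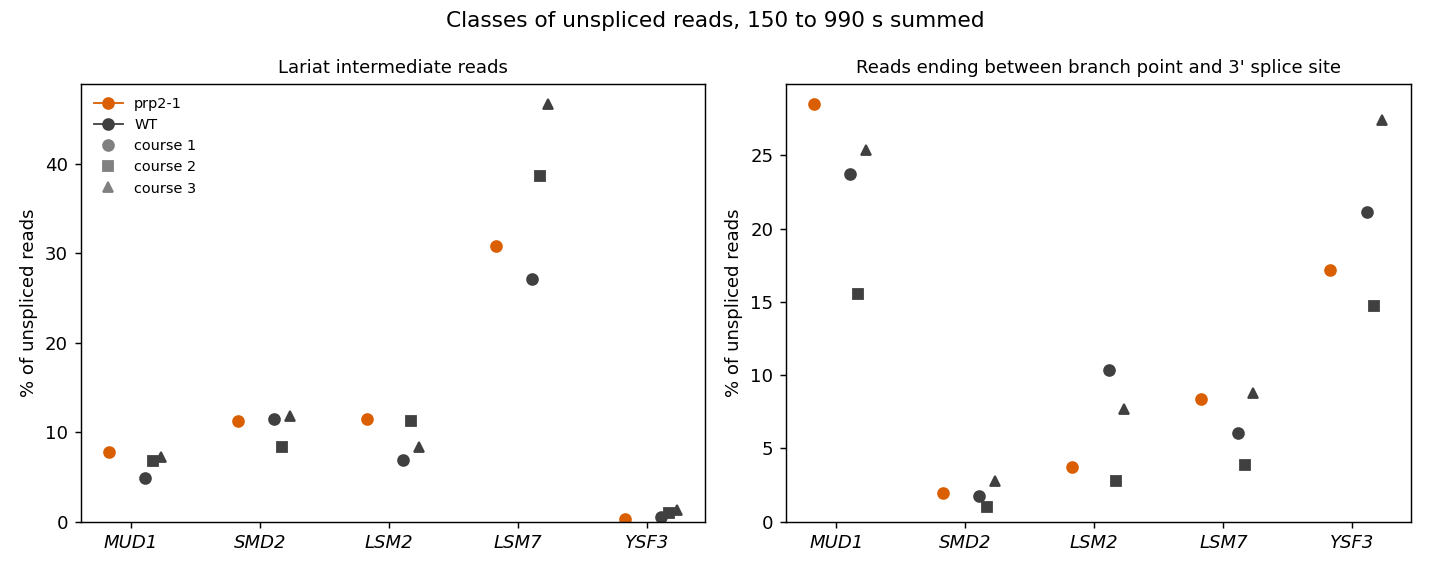
Lariat intermediate reads (left) and reads that end past the branch point but before the intron's end (right) as a percentage of unspliced reads (vertical axes) in each member, prp2-1 left of WT, 1 point per course over 150 to 990 s. LSM7 has the most lariat reads, at 30.8% in prp2-1 and 27.1% to 46.6% in WT, and YSF3 the fewest.

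The lariat share of unspliced reads was tested late against early in WT. YSF3 had 1.13%, 1.38% and 2.08% late and 0.169%, 0.638% and 0.566% early, with every late value above every early one. The log2 change was 1.75 ± 0.49 (SE), the highest of 248 introns, but the adjusted p was 0.176 by edgeR, and 0 of 5 members and 0% of introns passed. At an unadjusted p under 0.05 there were 39 introns, YSF3 among them, and DESeq2 called 3 introns (1.21%) and no member. In the fit with the course as a replicate block, where 17.7% of introns passed, YSF3 passed as well (1.73, adjusted p = 0.00957). These values rest on few reads, with 8, 12 and 16 lariat reads late and 2, 7 and 6 early. The other members ran from -0.57 ± 0.44 in LSM2 to 0.33 ± 0.42 in SMD2 (SE).

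Between prp2-1 and WT no member's lariat share passed by edgeR or DESeq2, beside 4.6% of 261 introns by each tool (by edgeR 3.45% lower and 1.15% higher), and 0 members had an unadjusted p under 0.05. YSF3 had the lowest value, -1.58 ± 0.79 (SE, adjusted p = 0.263 by edgeR). With 540 to 990 s alone it was lower at -3.39 (adjusted p = 0.0419 by edgeR, where 8.3% of introns passed), from 1 lariat read among 769 unspliced reads in prp2-1. The other members lay between -0.41 ± 0.50 in LSM7 and 0.43 ± 0.54 in LSM2 (SE). The tables of WT_30 used here do not separate lariat reads.

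The amount of labelled RNA was read as all reads of a gene per 1000000 intron reads of the library (rpm), which makes it a share of what was captured and not an amount per cell. In WT LSM7 took 470, 566 and 619 rpm late and 416, 344 and 353 early. It was higher late by 0.60 ± 0.15 (log2, SE, adjusted p = 0.0448 by edgeR's test with TMM factors and Benjamini-Hochberg adjustment), 1 of 5 members, beside 8.73% of 275 introns (4% higher and 4.73% lower). That call was lost without any 1 of the 3 courses (adjusted p of 0.0781, 0.242 and 0.0976 by edgeR). In the fit with the course as a replicate block, where 47.6% of introns passed, LSM2 was also higher (0.38) and MUD1 lower (-0.39). MUD1 had 246, 300 and 357 rpm late and 412, 362 and 419 early, so its windows did not overlap.

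In prp2-1 all 5 members had higher summed rpm than in any WT course, and MUD1 alone passed the test. The median over introns was also higher, at 1648 rpm in prp2-1 and 971 in WT. How many of all introns lay above every WT course was not counted. MUD1 had 969 rpm in prp2-1 and 318, 356 and 384 in WT, and SMD2 had 1654 in prp2-1 and 680, 835 and 822 in WT. LSM2 had 376 in prp2-1 and 200, 163 and 166 in WT. At all 7 times MUD1 and SMD2 were above every WT library, and LSM2 was at 5. Measured against the other introns with TMM factors, MUD1 was higher by 0.87 ± 0.18 (log2, SE, adjusted p = 0.00889 by edgeR), the 1 member of 5 to pass, beside 66.5% of 284 introns, with 32% higher and 34.5% lower. LSM2 at 0.51 ± 0.20 and SMD2 at 0.50 ± 0.19 missed the threshold (adjusted p = 0.0742 and 0.0650 by edgeR).

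LSM7 had 609 rpm in prp2-1 and 459, 458 and 537 in WT, and YSF3 had 573 in prp2-1 and 429, 470 and 530 in WT. With TMM factors they lay at -0.26 ± 0.19 and -0.32 ± 0.20 (log2, SE), and neither passed by edgeR. Without those factors the median intron moved from -0.01 to 0.57 and both had positive differences, 0.33 and 0.27. The direction of LSM7 and YSF3 therefore depends on the scaling, and that of MUD1, LSM2 and SMD2 was positive under either. MUD1 missed the threshold with 150 to 300 s alone (adjusted p = 0.0502 by edgeR, where 49.6% of introns passed).

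WT_30 and WT differed in the captured RNA, labelled and unlabelled together, of all 5 members at matched times. LSM7 had 1332 and 1891 rpm in WT_30 and 392, 300 and 367 in WT, and MUD1 had 884 and 997 in WT_30 and 376, 276 and 368 in WT. SMD2 had 1236 and 1746 in WT_30 and 728, 656 and 721 in WT, and LSM2 had 282 and 443 in WT_30 and 186, 127 and 131 in WT. YSF3 alone was lower, with 300 and 369 in WT_30 and 398, 362 and 431 in WT, where the groups overlapped. Against the other introns, LSM7 was higher by 1.73 ± 0.19, MUD1 by 1.01 ± 0.18, LSM2 by 0.84 ± 0.21 and SMD2 by 0.62 ± 0.18, and YSF3 lower at -0.71 ± 0.19 (log2, SE). All 5 passed by edgeR with TMM factors, with adjusted p from 9.07e-06 in LSM7 to 0.00963 in SMD2, beside 71.8% of 284 introns (37.3% higher and 34.5% lower).

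Those calls were not equally firm. YSF3 lost its call without TMM factors (-0.25, adjusted p = 0.453, where 74.6% of introns passed) and without WT_30 course 1 (adjusted p = 0.0516), and LSM2 and SMD2 lost theirs without WT_30 course 2 (0.0829 and 0.104), all by edgeR. The WT courses enter this comparison and that of prp2-1 alike, so the 2 sets of differences are not independent. In the 0 s libraries of WT_30, LSM7 already took 1237 and 1270 rpm and MUD1 took 553 and 500, whereas YSF3 took 88.2 and 66.2. The means of WT at 0 s, from few reads, were 148 rpm in LSM7, 76.4 in MUD1 and 142 in YSF3. Reads of the 0 s libraries were not taken away in any test of labelled RNA. Unlabelled RNA, which already differed between the series, is therefore part of what was compared.

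**Figure D5:**
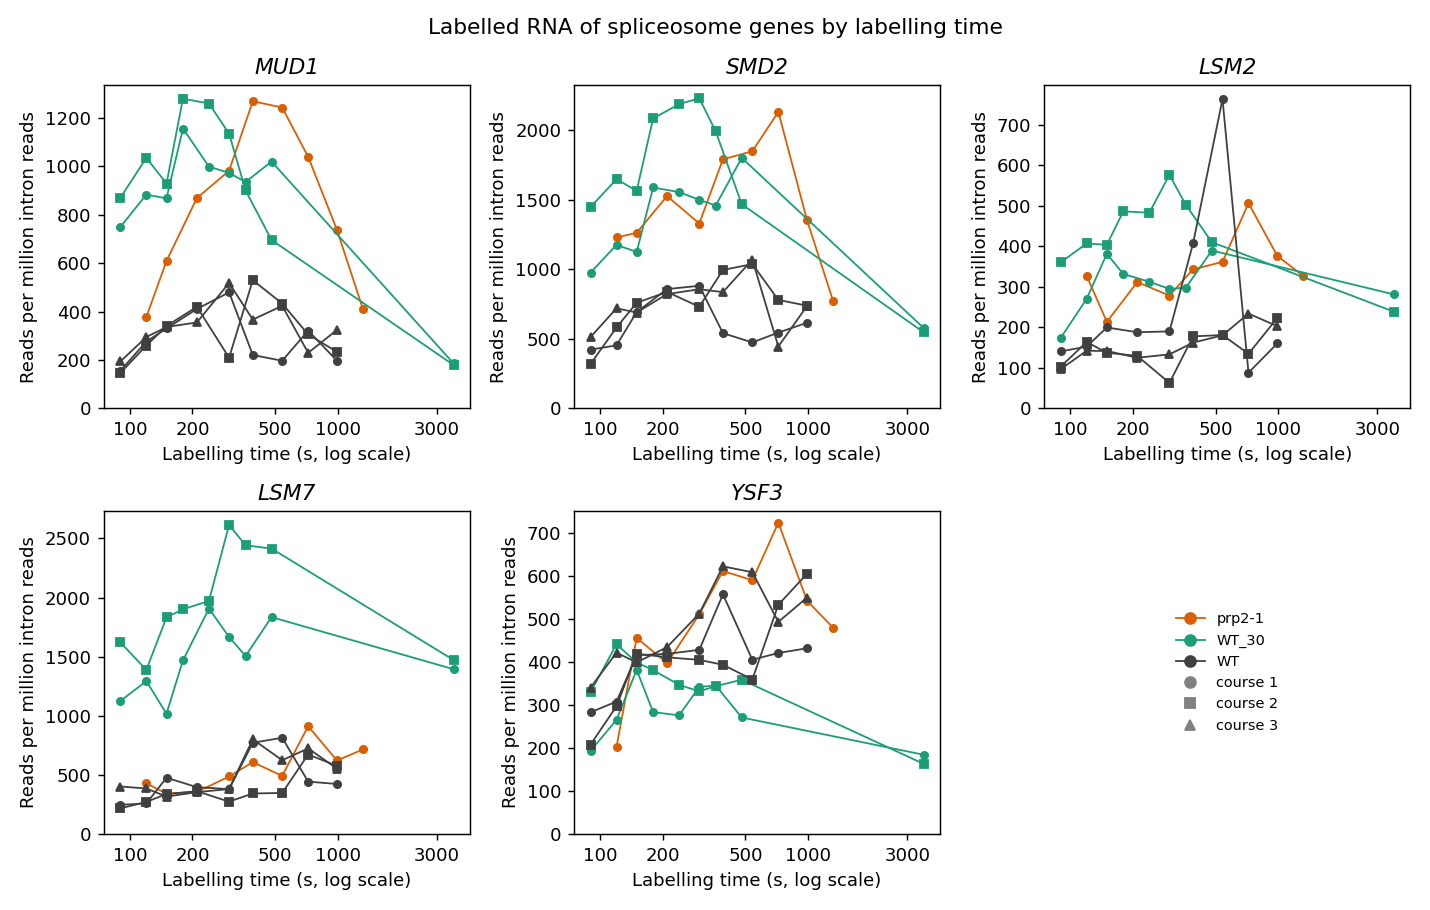
All reads of each member per 1000000 intron reads, rpm (vertical axis) against labelling time in seconds on a log scale, for each prp2-1, WT_30 and WT course, with 1 point per library. LSM7 lies at 1019 to 2615 in labelled WT_30 libraries and at 219 to 816 in WT, and the reads of LSM2 in WT course 1 stand apart at 540 s, at 764.

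Within the courses the shares of labelled RNA were not steady. In WT_30 MUD1 took 749 and 870 rpm at 90 s, 1155 and 1278 at 180 s and 186 and 180 at 3600 s. SMD2 likewise took 977 and 1447 at 90 s, 1589 and 2085 at 180 s and 578 and 548 at 3600 s. LSM7 differed from both, with 1395 and 1473 at 3600 s against 1127 and 1622 at 90 s. All 5 members stood higher at 180 s than at 90 s in both WT_30 courses. In prp2-1 MUD1 took 609 rpm at 150 s, 1268 at 390 s and 411 at 1320 s. No test was made on single times.

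The fall of the unspliced share was also expressed as an apparent lifetime, from a fit of 1 rate per course to a model with constant synthesis, no decay and no unlabelled background. In WT it was 11.6 ± 0.510 s in SMD2, 17.1 ± 1.19 s in MUD1, 23.7 ± 3.37 s in LSM7, 26.0 ± 5.06 s in LSM2 and 50.1 ± 5.67 s in YSF3 (SD, n = 3 courses). SMD2, MUD1 and YSF3 were separated from their neighbours in that order by more than their spread, whereas LSM7 and LSM2 were not. The median over 301 introns in WT was 28.9 s. The prp2-1 course gave 12.2 s in SMD2, 20.6 s in LSM7, 21.6 s in MUD1, 35.5 s in LSM2 and 91.1 s in YSF3, with a median of 23.1 s over 295 introns.

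In WT_30 the model gave 10.1 ± 0.724 s in LSM7, 15.8 ± 1.56 s in MUD1, 19.0 ± 0.375 s in SMD2, 114 ± 1.92 s in LSM2 and 310 ± 17.4 s in YSF3 (SD, n = 2), with a median of 31.9 s over 294 introns. The order of the members in these fits differed from WT, where LSM7 stood in the middle. Each series was fitted over its own labelled times, 90 to 3600 s in WT_30, 90 to 990 s in WT and 120 to 1320 s in prp2-1. No fit at matched times was made, so lifetimes of different series are not like for like. The model described WT_30 less well. The mean residual was 1.34 on the log2 scale in MUD1 and 1.03 in SMD2, against 0.463 and 0.513 in WT. These lifetimes are descriptions of the curves and no test was made on them.

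For context, 14 introns of 12 other genes of RNA processing were followed with the same tests. In WT 12 of the 14 fell from early to late and none rose, with a median log2 change of -1.01, for example SNR17B (-1.93 ± 0.33), a gene of U3 RNA, POP8 (-1.79 ± 0.24), the gene of a subunit of RNase P, and DBP2 (-1.61 ± 0.29), that of an RNA helicase. SNR17A and SNR17B are near-identical copies whose reads may be split between them, so their values are uncertain. In WT_30 11 fell, among them POP8 (-1.75 ± 0.18), DBP2 (-1.75 ± 0.24) and YRA1 (-1.38 ± 0.40), the gene of an mRNA export factor (SE, edgeR). Against WT, prp2-1 had 4 lower and 2 higher of the 14, with SNR17B at -3.66 ± 0.38, DBP2 at 2.04 ± 0.31 and SUS1 intron 2 at -1.53 ± 0.31. WT_30 had 5 lower and 7 higher, with SNR17A at 5.32 ± 0.27, SUS1 intron 2 at -3.22 ± 0.31 and SNR17B at 1.94 ± 0.33. The members' count of 0 in prp2-1 thus stood beside 6 of 14 in these genes and 93 of 283 in all introns, and no test compared the lists.

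Their other readouts moved in some genes. The lariat share was lower in prp2-1 in DBP2 (-2.69 ± 0.50), 1 of 11 tested, and in none of 11 late against early in WT. Labelled RNA was lower late than early in WT in 3 of 14, SNR17B (-1.18 ± 0.18), SNR17A (-1.04 ± 0.16) and NMD2 (-0.95 ± 0.16). It was lower in prp2-1 in 4, among them NOG2 (-2.66 ± 0.46) and DBP2 (-2.57 ± 0.48), and higher in 2, among them SUS1 intron 1 (1.32 ± 0.18). In WT_30 it was lower in 3, among them SNR17B (-4.59 ± 0.26) and YRA1 (-3.87 ± 0.52), and higher in 5, among them PSP2 (3.09 ± 0.19), all as log2 changes with SE by edgeR.

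The introns whose unspliced to spliced ratio followed each member most closely were picked by Pearson's r over 54 labelled libraries of prp2-1, WT_30 and WT, after subtraction of each library's median over 273 introns. The libraries fall into 3 series that differ in level, so r reflects those differences as well as time and is given as a description. LSM2 was followed by RPL16B (0.871), TMA20 (0.859) and BET4 (0.846). LSM7 was followed by EFM5 intron 2 (0.860), CGI121 (0.834) and RIM1 (0.833), and YSF3 by VMA10 (0.858), COX5B (0.840) and RPL16A (0.833). MUD1 had weaker companions in MOB2 (0.752), PBA1 (0.663) and ATG38 (0.610), as did SMD2 in ARP9 (0.709), RPO26 (0.676) and IMD4 (0.602). Among the members themselves LSM2 and YSF3 had r = 0.787, LSM7 and YSF3 had r = -0.686 and LSM2 and LSM7 had r = -0.478.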

How the data were processed

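The analysis took in 61 libraries, 11 of prp2-1, 20 of WT_30 and 30 of WT. The aligner (STAR 2.7.2b) and genome build (R64) are named by the submitters' processing notes. How reads were assigned to introns and read classes is not given in the sources used here. The values are counts as deposited by the authors, whole numbers per intron for all reads, unspliced reads and, in prp2-1 and WT, the lariat and branch-to-3′ splice site classes. Of 23 deposited files, 10 were used, and the authors' normalized and derived values were not. The prp2-1 files hold 180 further columns that could not be matched with certainty to a sample label, and these were not used.

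Counts were summed per course over the windows named. Each pair of read states, unspliced with spliced or lariat with the remaining unspliced reads, was fitted by edgeR 4.0.16 in R 4.3.3 with a term per course or per course and window, and the interaction with the group was tested by quasi-likelihood. Both states of a course shared 1 library size, their total over introns. Labelled RNA was tested on all reads with TMM factors. Low introns were left out (mean under 20 unspliced or 100 total reads, under 20 unspliced or 5 lariat reads for the lariat share, under 100 for labelled RNA), and all 5 members passed in every comparison. The means ran over all courses of a comparison. For the lariat share of prp2-1 against WT, YSF3 passed through its WT reads, with fewer lariat reads than the minimum in prp2-1 itself. P-values were adjusted by Benjamini-Hochberg over all introns tested, with a threshold of 0.05. Spike-in RNAs were left out of tests and library sizes. The comparison planned as 3 prp2-1 courses became 1.

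Per the labels a course supplies both its late and its early window, and the windows' deviations from the window means correlated at 0.544, 0.204 and 0.563 over 279 introns in WT, so they are pairs. The main late against early fits did not use this pairing, and the replicate block did. With the block more introns passed in WT: 262 instead of 254 for the unspliced share, 44 instead of 0 for the lariat share and 131 instead of 24 for labelled RNA. In WT_30 the windows also share a course (r = 0.01 over 282 introns). Recorded labelling times differ by a few seconds from the nominal ones and entered the lifetimes. Replicate libraries differed beyond counting error in all 41 pairs (chi-squared per degree of freedom of 7.82 to 2846). Scripts were tested on simulated data. Alternatives included DESeq2 1.42.0, other filters and scalings, left-out courses, the replicate block and, added after the data had been seen, removal of scaled 0 s reads and equal weight for each time of a window. Lifetimes were fitted with scipy 1.17.1 to log2 shares with 0.5 reads added. The members and lists were chosen with earlier results of these data known. Named beside the members are, by rule, up to 3 introns per comparison with the largest change in the RNA processing list and the 3 introns most like each member.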

Additional observations from a re-analysis of the deposited data

How the results depend on the processing

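Depth limits the lariat shares and all shares of members at 0 s, and 1 prp2-1 course gives no spread of its own. Of 510 member tests under alternatives, 452 kept their direction and side of the threshold, 15 lost and 15 gained significance, and 28 changed sign, of which the 4 named next had passed the threshold. With TMM factors for each read state, 1 of 5 members passed in WT late against early instead of 5 (MUD1 0.065 and YSF3 0.29, both reversed; introns called 56 instead of 254), and 0 instead of 5 in WT_30 late against early (MUD1 0.0035 and YSF3 0.29, reversed; introns 0 instead of 185). This scaling sets the typical intron near 0 by construction. It also turned the late to early change in prp2-1 against that in WT to -0.31 in LSM2, -0.43 in MUD1, -0.51 in SMD2 and -0.46 in YSF3, and without 1 WT course that change ran from -0.032 to 0.22 in SMD2 and from -0.017 to 0.28 in YSF3. The unspliced difference of prp2-1 from WT turned to 0.15 in MUD1, 0.024 in SMD2 and 0.19 in LSM7 with 540 to 990 s alone, and without 1 WT course ran from -0.014 to 0.11 in LSM2. Without 1 WT course the lariat change in WT ran from -0.074 to 0.75 in SMD2 and from -0.11 to 0.41 in LSM7, the lariat difference of prp2-1 from -0.062 to 0.22 in SMD2 (-0.51 with 540 to 990 s alone), and the change of labelled RNA in WT from -0.17 to 0.049 in SMD2. Labelled RNA in prp2-1 turned to 0.27 in YSF3 and 0.33 in LSM7 without TMM. With each time of a window weighted equally, an alternative added after the data had been seen, the unspliced difference of prp2-1 from WT turned to 0.063 in MUD1 and 0.24 in SMD2, its late to early change against that in WT to -0.042 in MUD1, -0.32 in SMD2 and -0.14 in YSF3, the lariat difference of prp2-1 to -0.11 in SMD2, and the unspliced difference of WT_30 from WT to -0.053 in SMD2. For the lariat share 1 member instead of 0 passed with the replicate block in WT late against early (44 introns instead of 0). No call is drawn for YSF3 with 540 to 990 s alone in prp2-1 against WT, where prp2-1 had 1 lariat read. Introns called in the last comparison were 12, and 0 without a filter, 0 with TMM factors for each read state, 5 with raised minimums, 0 with each time weighted equally, 0 to 22 without 1 WT course, 0 with 150 to 300 s alone and 20 with 540 to 990 s alone. For labelled RNA in WT late against early 0 instead of 1 passed without TMM and 0 to 0 without 1 course (introns 0 to 44), and 3 with the replicate block (131 introns instead of 24, and 68 by DESeq2). In prp2-1 against WT 2 instead of 1 passed by DESeq2, 2 with minimums raised 5 times, 3 without TMM (introns lower 53 of 182 called, instead of 98 of 189), 1 to 3 without 1 WT course, 0 with 150 to 300 s alone and 3 with 540 to 990 s alone. In WT_30 against WT 3 to 5 instead of 5 passed without 1 course, and without TMM 67 of 212 called introns were lower, instead of 98 of 204. Introns called for the unspliced share of prp2-1 against WT were 93, and 30 with each time weighted equally, 4 to 74 without 1 WT course, 22 with 150 to 300 s alone and 11 with 540 to 990 s alone. Without 1 course in turn no test of WT_30 late against early was run, as no residual degrees of freedom remain. WT_30 and WT share only course numbers (deviations correlated at 0.159), and the replicate block left 3 members called for unspliced reads and 5 for labelled RNA. The block changed no other call of a member. The median lifetime of the members in WT, 23.7 s, ran from 21.9 to 25.2 s without 1 course, and was 24.9 s less the 0 s library and 21.6 s without the times up to 120 s. The causes of these shifts were not tested beyond what the alternatives' construction shows.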
